A study of Mus musculus with 8 samples.

Results

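The Slit, Robo and Srgap genes encode a secreted guidance cue, its receptors and adaptors that act inside the cell. The 9 mouse genes Slit1, Slit2, Slit3, Robo1, Robo2, Robo3, Srgap1, Srgap2 and Srgap3 were taken by symbol, and every probe paired with one of these symbols was kept. This gave 37 probes of 41174 gene probes on the array, and 9 of 18322 genes with a symbol. The rule itself reads gene symbols and no measured value, but the genes were chosen with earlier results of these data known. Each array compared RNA of 1 siRNA pool with RNA of the scrambled pool, in the cortex of C57/BL6 mouse embryos. The siRNA was electroporated into a lateral ventricle on embryonic day E14.5 together with a vector for GFP, and cells were sorted from the dissociated cortex at E16.5. Foxo6, a forkhead transcription factor, was knocked down with siFoxO6-3 in 4 pools and with another siRNA, siFoxO6-2, in the other 4. Cells that received a non-targeting scrambled siRNA made up 1 pool, which lay on all 8 arrays. All groups carried GFP, and each pool combined several cortices. The cells were transfected transiently and so stand for a partial and recent loss of Foxo6 in electroporated cells only. The gate of the sort is not given in the sources used here.

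Slit proteins are secreted by midline and other guidepost cells and repel growing axons and migrating neurons that carry Robo receptors. When Slit binds, the tail of Robo recruits srGAP proteins, which bind it through an SH3 domain and switch off small GTPases near the membrane. Through their F-BAR domain the srGAPs also bend membranes and shape filopodia and neurites. In the embryonic cortex Slit and Robo are known for guiding callosal and corticofugal axons, for the migration of interneurons and projection neurons, and for the division of progenitors.

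The siRNAs are shown because every comparison rests on them. Capitals mark the 19 bases that the labels state, n is an unstated base, and the strand given is not stated. Foxo6 lies on chromosome 4.
siFoxO6-3: nnCCAUCAGCCUUAUGACGCU
siFoxO6-2: nnACAUGCCAGUGACGACUAC
Values below are log2 ratios of the siRNA pool over the scrambled pool, so a negative one means less signal after the siRNA. A probe was called where the p-value of limma, a linear model fitted to every gene probe, was under 0.05 after Benjamini-Hochberg adjustment over all gene probes. Foxo6 itself had log2 ratios of -1.36, -2.31, -1.21 and -1.74 on the siFoxO6-3 arrays and -0.88, -1.21, -0.40 and -1.30 on the siFoxO6-2 arrays. It was lower than scrambled on all 8 arrays, with a fitted log2 ratio of -1.30 over both siRNAs (SE 0.07, limma adjusted p = 0.00134). Plxna4, the plexin receptor that the title of the series names, was lower on all 8 arrays at probe MMAB037592, with a fitted log2 ratio of -1.05 (SE 0.09, limma adjusted p = 0.00161), and -0.49 (limma adjusted p = 0.0983) when each array was centred on its median. A second bright Plxna4 probe was not called, at -0.07 (limma adjusted p = 0.328). With the same centring Foxo6 was -0.69 (limma adjusted p = 0.0706).

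The arrays differed in how much they could show. Median raw signals were 58 to 123 in the siRNA channels and 66 to 83.9 in the scrambled channels, over local backgrounds of 44 to 54. The log2 ratios of replicate 4 of siFoxO6-3 followed the other arrays least, with a median Pearson correlation of 0.131 over all gene probes, and the medians of the other 7 arrays were 0.269 to 0.555. Markers of the cortex were present, with 9 of 9 measured progenitor genes and 8 of 9 projection neuron genes brighter than dim control spots on all arrays. The same held for 8 of 8 interneuron genes, 8 of 8 mural and meningeal genes and 5 of 5 measured red blood cell genes. This measure therefore does not show which cells made up the pools. Of the microglia list, 5 of 8 genes were called higher over both siRNAs together, beside 1335 of all 18322 genes. Per siRNA it was 0 of 8 with siFoxO6-3 (87 of all genes) and 5 of 8 with siFoxO6-2 (860). The mean log2 ratio of that list was 0.117 to 0.186 on the siFoxO6-3 arrays and 0.357 to 0.523 on the siFoxO6-2 arrays. The summed microglia signal was 375 to 3090 in the siRNA channels and 354 to 562 in the scrambled channels, and no defining marker of the list was below the dim control spots in every reading. The part of these cells in the results was not tested. In sorted bulk cells a lower signal can come from fewer cells of a type or from less RNA per cell, and these cannot be told apart here.

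The genes differed in how many probes they had and in how bright these were. The array held 1 probe for Slit1, 7 for Slit2, 2 for Slit3, 5 for Robo1, 8 for Robo2, 2 for Robo3, 5 for Srgap1, 5 for Srgap2 and 2 for Srgap3. A probe counted as bright where its signal lay above the 97.5th percentile of 959 dim control spots in all 16 channel readings. By this measure 14 of the 37 probes were bright, 18 were above in some readings and 5 in none. The bright ones belonged to Slit1 (1), Slit2 (2), Robo1 (3), Robo2 (3), Srgap1 (1), Srgap2 (2) and Srgap3 (2). Slit3 and Robo3 had no bright probe. No reading of the 37 probes was saturated.

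With both siRNAs together, 1 Robo1 probe rose and 1 probe each of Robo2, Srgap1 and Srgap3 fell. These were 4 of 37 probes (10.8%) at a limma adjusted p under 0.05, and over all gene probes the same rule called 11.8% (6.12% higher and 5.73% lower). The share among these genes was therefore near that of the array as a whole. Of the 14 bright probes 3 were called (21.4%), beside 20.4% of all 20806 bright probes. At an unadjusted p under 0.05 there were 8 of the 37 (21.6%), beside 26.2% of all gene probes. The median log2 ratio of the 37 probes was -0.01, and that of all gene probes was 0.00. The count was 7 without replicate 3 of siFoxO6-2, beside 8127 of all 41174 gene probes. It was 2 without replicate 4 of siFoxO6-2 (2103 of all gene probes) or without replicate 2 of siFoxO6-3 (2108). With all arrays kept, 4879 of all gene probes were called, so both counts moved in the same direction. All 4 calls ended when each array was centred on its median in place of the intensity-dependent loess curve (0 of 37, beside 1.23% of all gene probes), a choice that moved the median of all bright probes to 0.29. They also ended when the single scrambled pool was assumed to vary as much as siRNA pools do, a setting under which no gene probe at all was called.

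**Figure D1:**
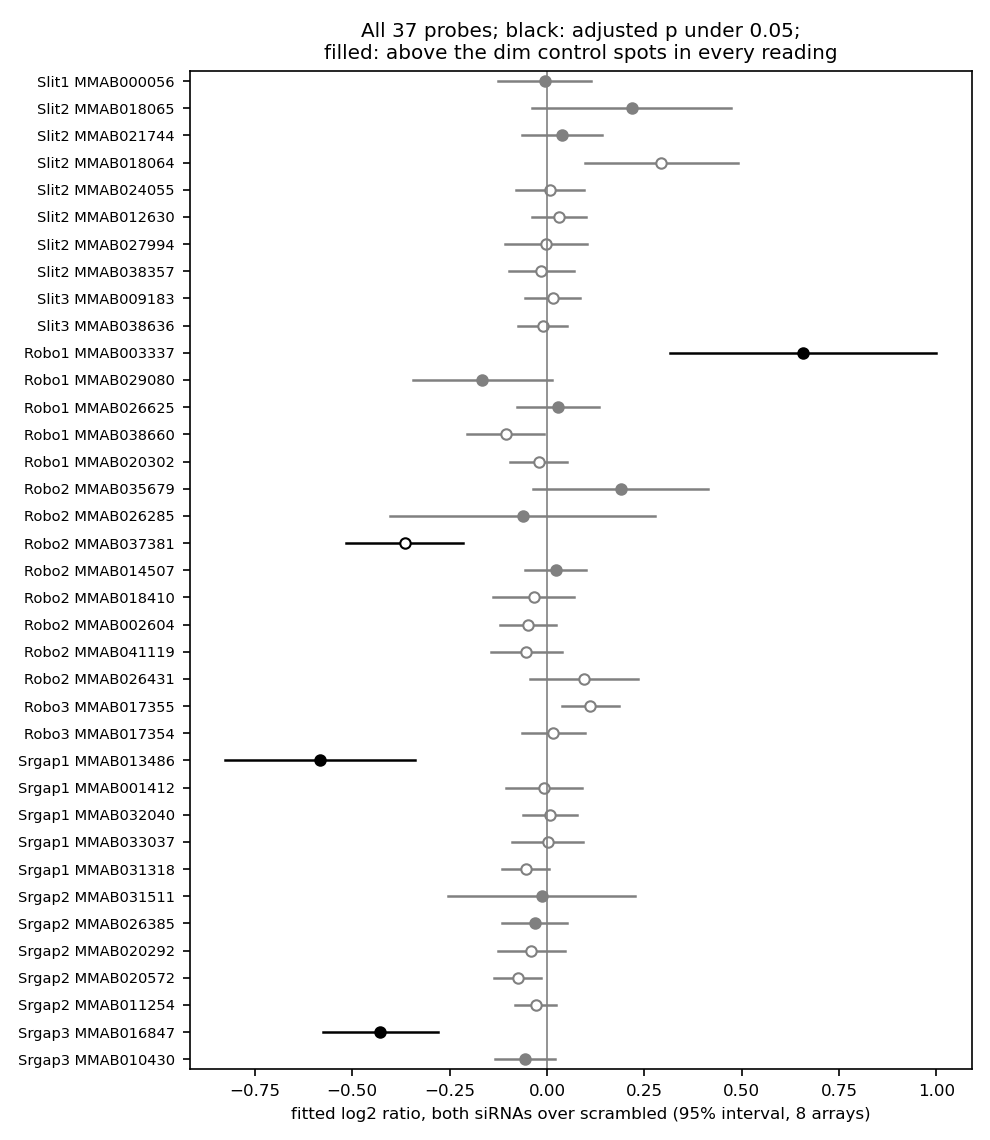
Fitted log2 ratio of both siRNAs over scrambled for all 37 probes, with 95% intervals over 8 arrays. Black marks the 4 probes with an adjusted p under 0.05, and filled points the 14 bright probes. Robo1 MMAB003337 lies to the right at 0.66, and Srgap1 MMAB013486, Srgap3 MMAB016847 and Robo2 MMAB037381 lie to the left at -0.58, -0.43 and -0.37. Other probes of the same genes lie between -0.17 (Robo1 MMAB029080) and 0.19 (Robo2 MMAB035679).

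Among the ligands, no Slit probe was called in any comparison. Slit1, expressed in developing brain and a ligand for Robo1 and Robo2, had log2 ratios of 0.00, 0.10, -0.28 and 0.14 on the siFoxO6-3 arrays and -0.01, 0.13, 0.04 and -0.17 on the siFoxO6-2 arrays at its single probe. The values lay on both sides of 0 with either siRNA, and the fitted ratio was -0.01 (95% interval -0.12 to 0.11, limma adjusted p = 0.963). Slit2, the best studied axon repellent of the family, had log2 ratios of 0.99, 0.02, 0.08 and 0.05 on the siFoxO6-3 arrays and 0.71, -0.07, -0.02 and -0.02 on the siFoxO6-2 arrays at MMAB018065, the brighter of its 2 bright probes. Replicate 1 stood far above the other replicates with both siRNAs, and the fitted ratio of 0.22 was not called (95% interval -0.04 to 0.47, limma adjusted p = 0.265). Both replicate 1 arrays carried the siRNA pool in Cy3, as did both replicate 3 arrays, at 0.08 with siFoxO6-3 and -0.02 with siFoxO6-2.

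A dimmer Slit2 probe, MMAB018064, had log2 ratios of 0.51, 0.38, -0.04 and 0.03 on the siFoxO6-3 arrays and 0.74, 0.18, 0.18 and 0.39 on the siFoxO6-2 arrays. It was higher on 7 of 8 arrays, but its fitted ratio of 0.29 was not called (limma adjusted p = 0.0651). It was called without replicate 3 of siFoxO6-3 (0.36, limma adjusted p = 0.0479) or replicate 3 of siFoxO6-2 (0.34, limma adjusted p = 0.0268), with array weights (0.35, 0.0205), without the dye term (0.29, 0.0499) and with an offset of 10 in the background correction (0.55, 0.0187). The second bright Slit2 probe, MMAB021744, had a fitted ratio of 0.04, and the other 4 dim ones lay between -0.01 and 0.03. Slit3, a Slit found in many tissues outside the nervous system too, had no bright probe, and its 2 probes had fitted ratios of -0.01 and 0.01.

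Robo1, a Slit receptor on cortical axons and migrating neurons, rose at 1 of its 5 probes. Probe MMAB003337 had log2 ratios of 1.17, 0.73, 0.58 and -0.03 on the siFoxO6-3 arrays and 1.23, 0.46, 0.18 and 0.94 on the siFoxO6-2 arrays. It was higher on 7 of 8 arrays, most of all on both replicate 1 arrays, and replicate 4 of siFoxO6-3 lay near 0. The fitted ratio was 0.66 (SE 0.15, 95% interval 0.32 to 1.00, limma adjusted p = 0.0296), or 1.58-fold over scrambled. Per siRNA the fitted ratio was 0.61 with siFoxO6-3 (limma adjusted p = 0.245) and 0.70 with siFoxO6-2 (limma adjusted p = 0.088), neither called. It averaged 0.52 on the arrays with the siRNA pool in Cy5 and 0.79 on those with it in Cy3.

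This call rested on most of the arrays. It ended without replicate 1 of siFoxO6-3 (0.57, limma adjusted p = 0.0888), replicate 2 (0.61, 0.101) or replicate 3 of siFoxO6-3 (0.69, 0.0629). It also ended without replicate 1 of siFoxO6-2 (0.58, limma adjusted p = 0.0905), replicate 2 (0.68, 0.0692) or replicate 4 of siFoxO6-2 (0.58, 0.0957). Without both replicate 1 arrays it was 0.45 (limma adjusted p = 0.217). The other bright Robo1 probes were not called. MMAB029080 had log2 ratios of 0.01, -0.39, 0.01 and -0.15 on the siFoxO6-3 arrays and 0.25, -0.67, -0.28 and -0.10 on the siFoxO6-2 arrays, with a fitted ratio of -0.17, and MMAB026625 had 0.03. The mean of the 5 probes was 0.08 (limma adjusted p = 0.213). Which exons each probe covers is not given in the sources used here.

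**Figure D2:**
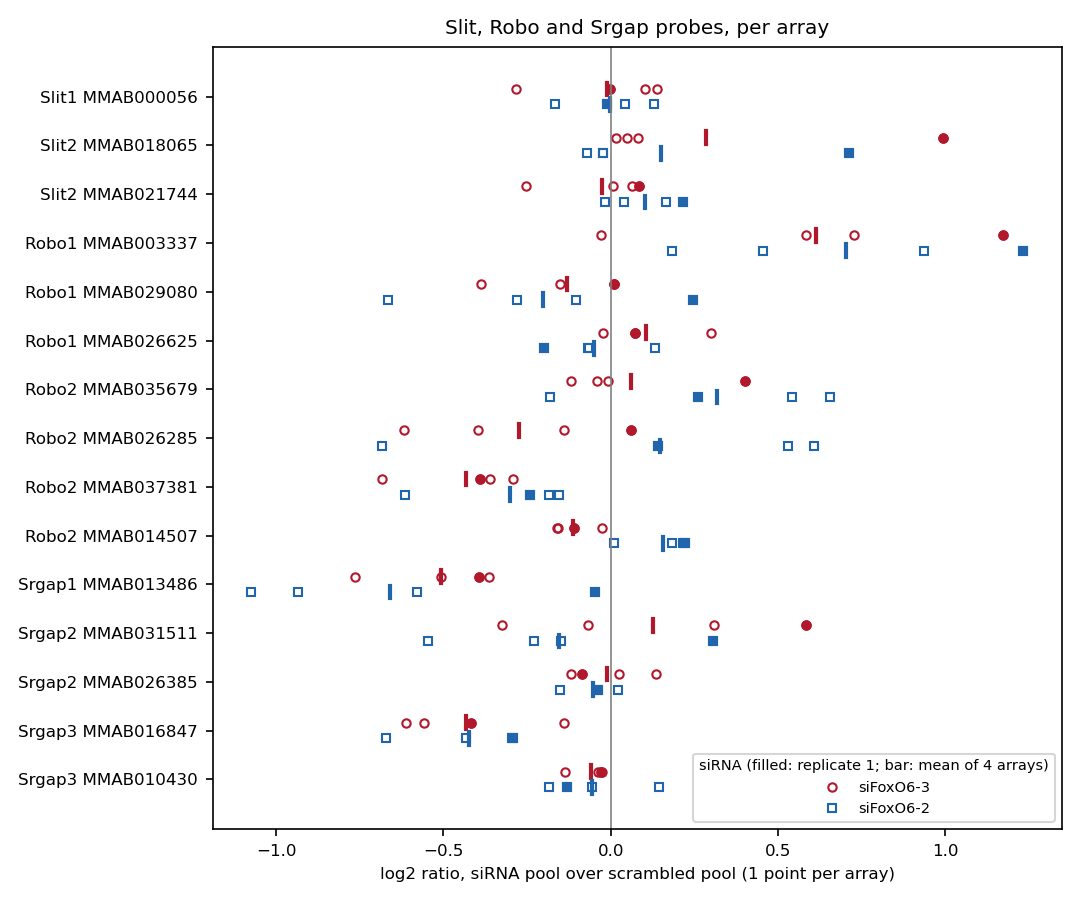
Log2 ratio of the siRNA pool over the scrambled pool on each of 8 arrays, for the 14 bright probes and the called Robo2 probe MMAB037381. Red circles are siFoxO6-3 and blue squares siFoxO6-2, filled symbols are replicate 1, and short bars are means of 4 arrays. Srgap1 MMAB013486 and Srgap3 MMAB016847 lie left of 0 on all 8 arrays, and Robo1 MMAB003337 lies right of 0 on 7.

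Robo2, which shares Slit ligands with Robo1, fell at 1 dim probe of 8. Probe MMAB037381 had log2 ratios of -0.39, -0.68, -0.29 and -0.36 on the siFoxO6-3 arrays and -0.24, -0.15, -0.62 and -0.19 on the siFoxO6-2 arrays. It was lower on all 8 arrays, with a fitted ratio of -0.37 (SE 0.06, 95% interval -0.52 to -0.22, limma adjusted p = 0.0138). It lay above the dim control spots on 3 of 4 siFoxO6-3 arrays and 3 of 4 siFoxO6-2 arrays, and in 8 of 8 scrambled readings. Raw signals were 47.8 to 139 in the siRNA channels and 70.2 to 108 in the scrambled channels, so the size of the change depended on the background correction. With a smaller offset of 10 in that correction the fitted ratio was -0.72. The call ended without both replicate 1 arrays (-0.40, limma adjusted p = 0.111).

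The 3 bright Robo2 probes were not called with both siRNAs. MMAB035679 had log2 ratios of 0.40, -0.12, -0.04 and -0.01 on the siFoxO6-3 arrays and 0.26, 0.65, -0.18 and 0.54 on the siFoxO6-2 arrays, and a fitted ratio of 0.19 (limma adjusted p = 0.27) that was called without replicate 3 of siFoxO6-2 (0.27, limma adjusted p = 0.0423). MMAB026285 had log2 ratios of 0.06, -0.40, -0.14 and -0.62 on the siFoxO6-3 arrays and 0.14, 0.61, -0.68 and 0.53 on the siFoxO6-2 arrays, with siFoxO6-2 spread widely and a fitted ratio of -0.06 (limma adjusted p = 0.844). MMAB014507 had log2 ratios of -0.11, -0.16, -0.03 and -0.16 on the siFoxO6-3 arrays and 0.22, 0.18, 0.01 and 0.22 on the siFoxO6-2 arrays. All 4 siFoxO6-3 values of this probe lay below 0 and all 4 siFoxO6-2 values above it, and the fitted ratio was 0.02. The other dim Robo2 probes were not called, with fitted ratios between -0.05 and 0.09. The mean of the 8 Robo2 probes was -0.03 (limma adjusted p = 0.711).

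Robo3 is the divergent receptor that lets commissural axons cross the midline, and in mammals it does not bind Slits. Its probe MMAB017355 had log2 ratios of 0.06, 0.08, 0.23 and -0.02 on the siFoxO6-3 arrays and 0.24, 0.08, 0.09 and 0.13 on the siFoxO6-2 arrays. It was higher on 7 of 8 arrays by a small amount, and the fitted ratio of 0.11 was not called (limma adjusted p = 0.0621). It was called without replicate 3 of siFoxO6-2 (0.13, limma adjusted p = 0.0329), with array weights (0.12, 0.0206) and from the authors' deposited log2 ratios (0.15, 0.0475). The other Robo3 probe had a fitted ratio of 0.02.

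Srgap1, a partner of the Robo1 tail that inactivates Cdc42, fell at its single bright probe. MMAB013486 had log2 ratios of -0.39, -0.76, -0.36 and -0.51 on the siFoxO6-3 arrays and -0.05, -0.58, -1.07 and -0.94 on the siFoxO6-2 arrays. It was lower on all 8 arrays, least on replicate 1 of siFoxO6-2. The fitted ratio was -0.58 (SE 0.10, 95% interval -0.83 to -0.34, limma adjusted p = 0.0146), which puts the siRNA pools at 0.668 of the scrambled level. Per siRNA, with the spread shared over all 8 arrays, it was -0.51 with siFoxO6-3 (limma adjusted p = 0.184) and -0.66 with siFoxO6-2 (limma adjusted p = 0.0389). Fitted on the siFoxO6-2 arrays only, the latter was not called (limma adjusted p = 0.165). The log2 ratio averaged -0.70 on the Cy5 arrays and -0.47 on the Cy3 arrays.

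The call over both siRNAs ended without replicate 2 of siFoxO6-3 (-0.55, limma adjusted p = 0.0574) or replicate 4 of siFoxO6-2 (-0.55, limma adjusted p = 0.0556). Of the 4 called probes it alone was still called without both replicate 1 arrays (-0.71, limma adjusted p = 0.0482). The remaining 4 Srgap1 probes were dim, with fitted ratios between -0.05 and 0.01. The mean of the 5 probes was -0.13 (limma adjusted p = 0.0213).

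Srgap2, the srGAP known for filopodia and neurite branching of migrating cortical neurons, was not called at any of 5 probes. Its brightest probe, MMAB031511, had log2 ratios of 0.58, -0.07, 0.31 and -0.32 on the siFoxO6-3 arrays and 0.31, -0.23, -0.55 and -0.15 on the siFoxO6-2 arrays. Both replicate 1 arrays gave the highest value of their siRNA, and the fitted ratio was -0.01 (95% interval -0.25 to 0.23, limma adjusted p = 0.956). The other bright probe, MMAB026385, had a fitted ratio of -0.03, and the dim Srgap2 probes lay between -0.07 and -0.03.

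Srgap3, also known as WRP and tied to the WAVE actin regulators, fell at 1 of 2 bright probes. MMAB016847 had log2 ratios of -0.42, -0.56, -0.14 and -0.61 on the siFoxO6-3 arrays and -0.29, -0.30, -0.67 and -0.43 on the siFoxO6-2 arrays. It was lower on all 8 arrays, by similar amounts with either siRNA. The fitted ratio was -0.43 (SE 0.06, 95% interval -0.57 to -0.28, limma adjusted p = 0.00775), which puts the siRNA pools at 0.744 of the scrambled level. Per siRNA, with the spread shared over all 8 arrays, it was -0.43 with siFoxO6-3 (limma adjusted p = 0.0811) and -0.42 with siFoxO6-2 (limma adjusted p = 0.0323). Fitted on the siFoxO6-2 arrays only, the latter was not called (limma adjusted p = 0.0824).

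Leaving out any 1 array kept the call over both siRNAs, at -0.48 to -0.37, but it ended without both replicate 1 arrays (-0.44, limma adjusted p = 0.0904). The second bright Srgap3 probe, MMAB010430, had log2 ratios of -0.03, -0.04, -0.14 and -0.03 on the siFoxO6-3 arrays and -0.13, 0.15, -0.18 and -0.06 on the siFoxO6-2 arrays and a fitted ratio of -0.06 (95% interval -0.13 to 0.02, limma adjusted p = 0.335). The mean of both probes was -0.24 (limma adjusted p = 0.0125).

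The direction of the Srgap3 probe depended on how the arrays were centred. Before any correction the raw signal of MMAB016847 was 204 to 1632 in the siRNA channels (median 1078) and 419 to 777 in the scrambled channels (median 557). With median centring its fitted ratio was 0.15 (limma adjusted p = 0.581), below the 0.29 that all bright probes had there. Srgap1 MMAB013486 became -0.13 (limma adjusted p = 0.573), Robo2 MMAB037381 -0.31 (limma adjusted p = 0.0744) and Robo1 MMAB003337 1.12 (limma adjusted p = 0.0687). In both centrings Robo1 MMAB003337 lay above the median of the bright probes and the Srgap1 and Srgap3 probes lay below it.

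**Figure D3:**
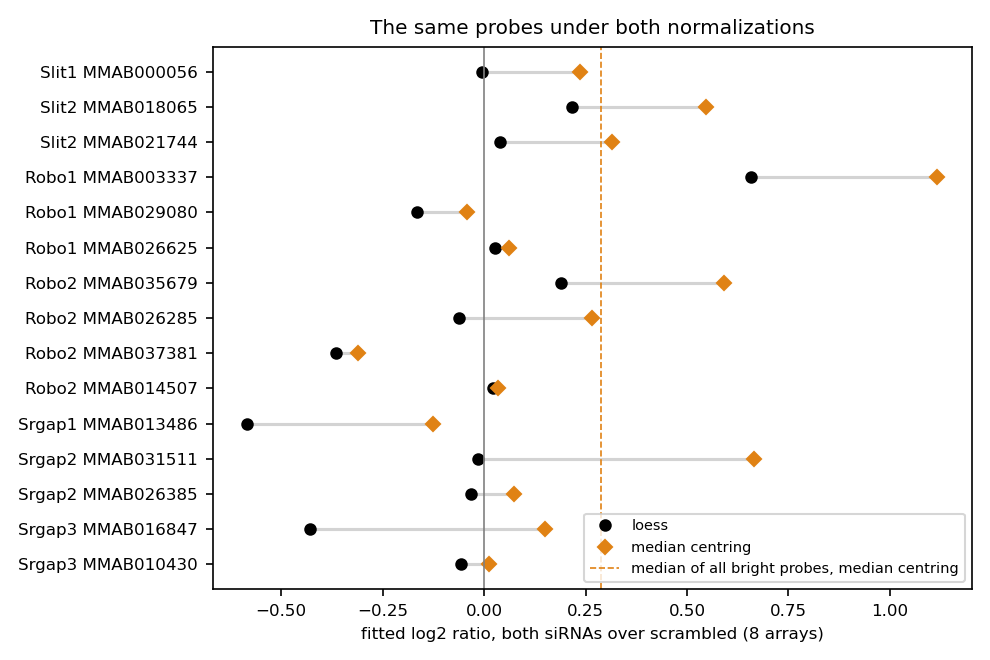
Fitted log2 ratio of both siRNAs over scrambled (8 arrays) for the 14 bright probes and Robo2 MMAB037381, after loess (black circles) and after median centring (orange diamonds). The dashed line is the median of all 20806 bright probes after median centring, 0.29. Srgap3 MMAB016847 lies at -0.43 after loess and at 0.15 after median centring, and Srgap1 MMAB013486 at -0.58 and -0.13.

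Taken singly, siFoxO6-3 called 0 of the 37 probes with limma, beside 0.658% of all gene probes, and 5 of the 37 (13.5%) at an unadjusted p under 0.05, beside 14.1% of all gene probes. Without replicate 3 of siFoxO6-2, which enters the shared estimate of the spread, it called 3, namely Srgap1 MMAB013486, Srgap3 MMAB016847 and Robo2 MMAB037381. In that setting 1534 of all 41174 gene probes were called with siFoxO6-3, in place of 271 with all arrays. The siRNA siFoxO6-2 called 2 of 37 (5.41%), beside 7.86% of all gene probes, and 9 of 37 (24.3%) at an unadjusted p under 0.05, beside 22.3% of all gene probes. These 2 were the Srgap1 and Srgap3 probes above. The siFoxO6-2 count was 6 without replicate 3 of siFoxO6-2, beside 6382 of all gene probes, where all arrays gave 3236. The count was 0 without replicate 1 or replicate 2 of siFoxO6-3 (2590 and 2094 of all gene probes). It was also 0 without replicate 2 or replicate 4 of siFoxO6-2 (1369 and 456). It was 1 without replicate 3 of siFoxO6-3 (2397) or replicate 1 of siFoxO6-2 (514), and 2 without replicate 4 of siFoxO6-3 (3569).

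The direct comparison of siFoxO6-3 with siFoxO6-2 cancels the shared scrambled pool and called 0 of 37 probes with limma, beside 0% of all gene probes. At an unadjusted p under 0.05 there was 1 of 37 (2.7%), beside 6.77% of all gene probes. This was Robo2 MMAB014507, with a fitted ratio of -0.11 with siFoxO6-3 and 0.16 with siFoxO6-2 and a difference of -0.27 (95% interval -0.43 to -0.11, limma adjusted p = 0.431). The siRNA arrays did not overlap at 2 of 37 probes (5.41%), Robo2 MMAB014507 and the dim Srgap2 MMAB011254, beside 3.58% of all gene probes. For the 4 probes called over both siRNAs the difference between siRNAs was -0.09 for Robo1 (95% interval -0.77 to 0.60), 0.15 for Srgap1 (95% interval -0.33 to 0.64), -0.01 for Srgap3 (95% interval -0.30 to 0.28) and -0.13 for Robo2 (95% interval -0.43 to 0.17). The intervals of the Robo1, Srgap1 and Robo2 probes are wide enough to hold differences as large as their own effects.

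Promoter sequence is shown for the genes with a called probe, since Foxo6 belongs to a family of DNA-binding factors. The windows come from RefSeq (GRCm38.p6), from 250 bases before to 50 after an annotated start, and matched 8 of the 9 genes with 10 starts. They were searched on both strands for GTAAACA and CAAAACA, letters that forkhead factors of the FoxO group are known to bind, and neither of these overlaps the other within the matches. GTAAACA was in none of the 10 windows, beside 3.65% of all 32851 promoters. CAAAACA was in 2 windows, beside 6.28% of all promoters, and either word was in 9.63% of all. Capitals mark the match, which in the Robo2 window reads on the other strand.
Robo1 chr16:72662899-72663198 (+ strand): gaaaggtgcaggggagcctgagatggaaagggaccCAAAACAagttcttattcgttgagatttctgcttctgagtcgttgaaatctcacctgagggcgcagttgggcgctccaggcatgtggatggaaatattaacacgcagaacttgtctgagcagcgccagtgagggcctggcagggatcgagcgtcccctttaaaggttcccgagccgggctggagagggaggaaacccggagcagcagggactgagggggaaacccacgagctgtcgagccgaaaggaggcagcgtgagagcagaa
Robo2 chr16:75447244-75447543 (- strand): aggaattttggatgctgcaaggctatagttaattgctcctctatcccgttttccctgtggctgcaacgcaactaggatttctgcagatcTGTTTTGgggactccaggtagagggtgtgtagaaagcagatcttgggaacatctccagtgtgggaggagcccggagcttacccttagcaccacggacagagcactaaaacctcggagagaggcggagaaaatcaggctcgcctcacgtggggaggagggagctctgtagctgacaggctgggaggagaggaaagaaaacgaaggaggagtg
Srgap1 chr10:122047266-122047565 (- strand): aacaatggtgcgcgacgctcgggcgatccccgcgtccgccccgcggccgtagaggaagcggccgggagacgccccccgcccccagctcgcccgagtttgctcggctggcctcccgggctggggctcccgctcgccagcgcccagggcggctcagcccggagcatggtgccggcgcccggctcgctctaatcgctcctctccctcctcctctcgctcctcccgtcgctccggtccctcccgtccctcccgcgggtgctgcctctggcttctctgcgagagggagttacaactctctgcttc
Srgap3 chr6:112947217-112947516 (- strand): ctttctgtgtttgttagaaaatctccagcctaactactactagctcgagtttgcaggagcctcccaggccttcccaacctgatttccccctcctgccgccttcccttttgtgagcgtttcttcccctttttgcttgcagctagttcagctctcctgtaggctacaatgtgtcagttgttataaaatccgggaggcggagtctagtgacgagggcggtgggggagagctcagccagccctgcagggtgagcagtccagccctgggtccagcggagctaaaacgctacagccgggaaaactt
The Robo1 match began 215 bases before the start and the Robo2 match 161 bases before it. The Robo1 start lies inside the RefSeq gene, which spans chr16:72027518-73047491, and the gene Robo2 spans chr16:73891976-75447443 with 3 starts in the table. The Srgap1 and Srgap3 windows, from genes whose probes fell, held neither word, nor did the other 2 Robo2 windows, which are not printed. A match is a run of letters and no measured binding.

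Lists of known partners and effectors of Slit and Robo were read in the same way. Of 40 measured genes, taken at their brightest probe, 5 were called higher and 10 lower with both siRNAs (37.5%), beside 15.2% of the brightest probes of all 18322 genes. Of the 40 probes 38 were bright, and of all bright probes 20.4% were called. Their median log2 ratio was -0.06, and that of all genes was 0.00. Partners gave 4 higher and 6 lower of 19, and effectors 1 higher and 4 lower of 21. Of the called genes 13 had more than 1 probe, and 3 of these had a second probe called in the same direction. A probe called in the opposite direction was found for 1 gene, so most of these calls rested on a single probe. With siFoxO6-3 alone 0 were called by limma (0.988% of all genes), and with siFoxO6-2 alone 3 higher and 7 lower (10.1% of all genes). The count over both siRNAs was 8 without replicate 1 of siFoxO6-3 and 7 without replicate 2 of siFoxO6-3. It was 8 without replicate 1 of siFoxO6-2, 9 without replicate 4 of siFoxO6-2 and 1 without both replicate 1 arrays. In the same order, 2193, 2108, 2205, 2103 and 353 of all 41174 gene probes were called, where all arrays gave 4879. With median centring the partner and effector count was 0, beside 506 of all gene probes.

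Heparan sulfate chains on the cell surface are known to hold Slit and Robo together. Gpc1, a glypican that binds Slit, had log2 ratios of -0.74, -0.81, -0.17 and -0.47 on the siFoxO6-3 arrays and -1.38, -1.10, -0.39 and -1.08 on the siFoxO6-2 arrays. It was lower on all 8 arrays, with a fitted ratio of -0.77 (SE 0.11, limma adjusted p = 0.00732). Ext1, a polymerase of heparan sulfate chains, had log2 ratios of -0.33, -0.40, -0.15 and -0.34 on the siFoxO6-3 arrays and -0.50, -0.37, -0.39 and -0.23 on the siFoxO6-2 arrays. It was lower on all 8 arrays with little spread, and fitted at -0.34 (SE 0.04, limma adjusted p = 0.00398). A second bright Ext1 probe was not called (-0.13, limma adjusted p = 0.493), and a dim one was called lower (-0.26, limma adjusted p = 0.00649). The other dim Ext1 probes were not called, with fitted ratios between -0.06 and 0.02. Ndst1, which sulfates heparan sulfate chains, had log2 ratios of -0.36, -0.57, -0.73 and -0.27 on the siFoxO6-3 arrays and -0.44, -0.92, -0.26 and -0.75 on the siFoxO6-2 arrays. Its fitted ratio was -0.54 (SE 0.08, limma adjusted p = 0.00683), and a second Ndst1 probe fell too (-0.31, limma adjusted p = 0.0386). Another bright Ndst1 probe was not called (-0.10, limma adjusted p = 0.14). The syndecan Sdc1 fell by 0.15 on the log2 scale (limma adjusted p = 0.0254). The other syndecans were not called, with fitted ratios of 0.19 for Sdc2 (limma adjusted p = 0.369), -0.12 for Sdc3 (0.0566) and -0.08 for Sdc4 (0.29).

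Abl1, a kinase that acts on Robo tails, had log2 ratios of -0.45, -0.55, -0.20 and -0.70 on the siFoxO6-3 arrays and -0.27, -0.99, -0.62 and -0.31 on the siFoxO6-2 arrays. It was lower on all 8 arrays and fitted at -0.51 (SE 0.08, limma adjusted p = 0.00852). The dim Abl1 probes were not called, at -0.04 and 0.02. With median centring these 4 genes lost their calls, with Gpc1 at -0.04, Ext1 at 0.07, Ndst1 at 0.14 and Abl1 at 0.10, so the direction of Ext1, Ndst1 and Abl1 turned. All were below the 0.29 of bright probes under that centring. Without both replicate 1 arrays Gpc1 alone of the partners and effectors was called.

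Ndfip1, an adaptor for ubiquitin ligases that lowers Robo1 at the cell surface, rose. It had log2 ratios of 0.30, 0.20, -0.04 and 0.21 on the siFoxO6-3 arrays and 0.56, 0.41, 0.37 and 0.75 on the siFoxO6-2 arrays, higher on 7 of 8 arrays, with a fitted ratio of 0.34 (SE 0.05, limma adjusted p = 0.00858), and 2 more of its 4 probes rose by 0.62 and 0.80. Cdh2, the N-cadherin that Robo signalling is known to weaken, had log2 ratios of 0.80, 0.56, 0.44 and 0.27 on the siFoxO6-3 arrays and 0.63, 0.49, 0.17 and 0.26 on the siFoxO6-2 arrays and a fitted ratio of 0.45 (SE 0.07, limma adjusted p = 0.00862). A second bright Cdh2 probe went the other way and was called lower (-0.75, limma adjusted p = 0.00949). With median centring Ndfip1 was 1.21 and Cdh2 1.13, neither called. Leaving out any 1 array kept the calls of Gpc1, Ext1, Ndst1, Abl1, Ndfip1 and Cdh2 over both siRNAs.

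Among the GTPases that srGAPs act on, Cdc42 had a fitted ratio of 0.22 (limma adjusted p = 0.298) and Rac1 of -0.09 (limma adjusted p = 0.373). Rhoa had log2 ratios of 0.01, -0.07, 0.16 and -0.06 on the siFoxO6-3 arrays and -0.54, -0.53, -0.28 and -0.28 on the siFoxO6-2 arrays. It lay near 0 on the siFoxO6-3 arrays and below 0 on all siFoxO6-2 arrays, with a fitted ratio of 0.01 with siFoxO6-3 (limma adjusted p = 0.966) and -0.41 with siFoxO6-2 (limma adjusted p = 0.0124). That siFoxO6-2 call ended without replicate 1 (-0.34, limma adjusted p = 0.0599) or replicate 2 of siFoxO6-2 (-0.37, limma adjusted p = 0.0545), and turned to 0.16 with median centring. The difference between the siRNAs was 0.42 and was not called (limma adjusted p = 0.35). Over both siRNAs the same Rhoa probe was called lower, at -0.20 (limma adjusted p = 0.0273). That call was kept in 3 of 8 fits that left out 1 array. A second bright Rhoa probe was not called over both siRNAs, at 0.12 (limma adjusted p = 0.244). Robo4, the Robo of blood vessels, had a fitted ratio of 0.00 at its single probe (limma adjusted p = 0.99).

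**Figure D4:**
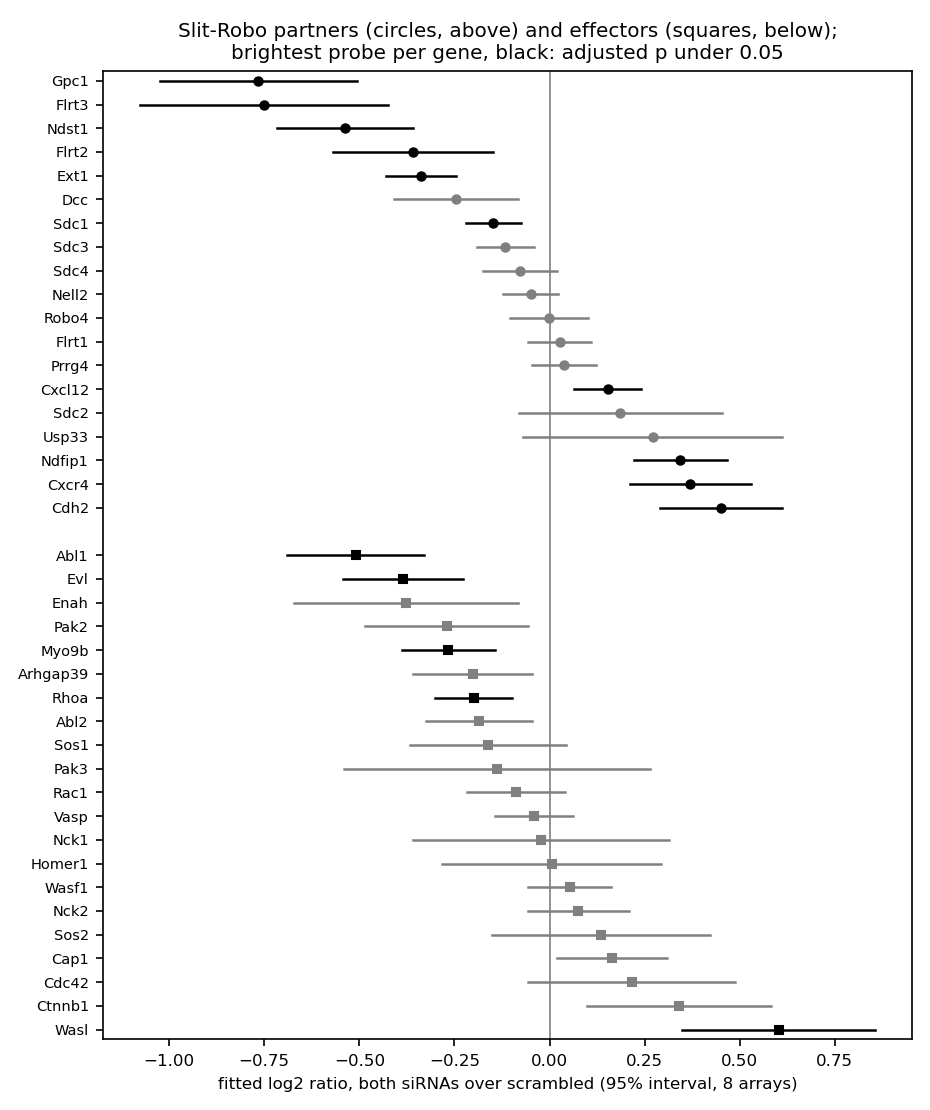
Fitted log2 ratio of both siRNAs over scrambled, with 95% intervals over 8 arrays, at the brightest probe of 19 partners (circles, above) and 21 effectors (squares, below) of Slit and Robo. Black marks an adjusted p under 0.05. The 10 genes called lower include Gpc1 at -0.77, Ndst1 at -0.54 and Abl1 at -0.51, and the 5 called higher include Cdh2 at 0.45 and Ndfip1 at 0.34.

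The probes whose log2 ratios ran most like those of each gene's brightest bright probe were found by Pearson correlation over the 8 arrays, among 12816 genes. For Robo1 these were Clcn3 (r = 0.991), an endosomal chloride transporter, and Usp14 (r = 0.978), a proteasome-bound deubiquitinase. For Srgap1 they were Pdgfra (r = 0.948), a growth factor receptor of oligodendrocyte precursors, and Txndc16 (r = 0.943). For Srgap3 they were 4932441K18Rik (r = 0.964) and 2610015P09Rik (r = 0.958). For Srgap2 they were Slc1a2 (r = 0.980), a glutamate transporter, and Chm (r = 0.979), and for Slit1 Rcan2 (r = 0.984) and Olfr569 (r = 0.980). For Slit2 they were Arrdc1 (r = 0.955) and Phf14 (r = 0.927), and for Robo2 Fam103a1 (r = 0.954) and Trpv4 (r = 0.951). All points of these correlations share the scrambled pool and the 8 arrays, and the best of so many candidates is high by selection. They describe likeness over arrays and not in level, since Chm had a fitted ratio of -0.42 where Srgap2 had -0.01.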

How the data were processed

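Each of 8 arrays carried an siRNA pool and the common scrambled pool in opposite dyes, with replicates 2 and 4 of each siRNA in Cy5 and replicates 1 and 3 in Cy3, per the labels. The authors deposited spot and background intensity values for both channels, uncorrected, per the file headers. Their deposited table of log2 ratios names no method; its correlation with the log2 ratios computed here was 0.85 to 0.971 per array, and it served as an alternative. Probe positions on the genome are not given in the sources used here.

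Intensities were corrected with normexp (offset 50) and normalized by loess within arrays, with 4046 control spots at weight 0, in limma 3.58.1 (R 4.3.3). Each of 41174 gene probes was fitted with 1 coefficient per siRNA and a dye term (5 residual degrees of freedom), without a replicate block. Tests were two-sided, p-values were Benjamini-Hochberg adjusted over all gene probes, and a probe was called at an adjusted p under 0.05. "Both siRNAs" is the mean of the coefficients. The scrambled pool is 1 control sample, whose own spread the tests leave out. The number of arrays limits precision. Symbols came from the platform annotation (34186 probes with a symbol, 6988 without one). All probes of the 9 genes were reported, some dim ones only as a range of fitted ratios. Named partners and effectors are the 6 called genes with the smallest p over both siRNAs, the 3 smallest per other comparison, and Robo4. Sdc1 to Sdc4, Cdc42 and Rac1, and the second probes of partners, were named after their values were seen. Members and lists were chosen with earlier results of these data known. Of 103 list genes 99 were measured. The fits were also run on simulated data with independent noise on each array and no shared scrambled pool. That check therefore does not cover the spread of the scrambled pool or likeness between arrays.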

Additional observations from a re-analysis of the deposited data

Results flagged for a closer look

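Within each siRNA, the highest or lowest of 4 arrays was set against the others for every probe, which made 74 groups, and chance alone marks about 1 in 20 such groups. At Slit2 MMAB018065, replicate 1 stood apart with both siRNAs, at 0.99 with siFoxO6-3 (the others at 0.02 to 0.08) and at 0.71 with siFoxO6-2 (the others at -0.07 to -0.02). At Slit2 MMAB012630, a dim probe, replicate 1 of siFoxO6-2 was at -0.0652 and the others at 0.0503 to 0.0573. At Slit3 MMAB009183 replicate 4 of siFoxO6-2 was at 0.16 and the others at -0.05 to -0.01. At Srgap3 MMAB010430 replicate 3 of siFoxO6-3 was at -0.14 and the others at -0.04 to -0.03.

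At Robo2 MMAB014507 every siFoxO6-3 array lay below 0 and every siFoxO6-2 array above it. The difference of -0.27 was not called (limma adjusted p = 0.431).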

How the results depend on the processing

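Against the 4 probes called over both siRNAs, the count was 0 with median centring, 0 with the scrambled pool given an siRNA pool's spread, 1 without both replicate 1 arrays (chosen after seeing the data) and 2 of 9 genes with the mean of probes, and it ran from 2 to 7 when single arrays were left out. Against the 2 called with siFoxO6-2, it was 4 with an offset of 10, 8 with array weights, 1 with the replicate block, 1 with the mean of probes, and 0 with median centring, scaling between arrays, a trend with robust variance, each siRNA on its own arrays, the widened scrambled spread or without both replicate 1 arrays, and 0 to 6 without single arrays. Against the 0 called with siFoxO6-3, it was 2 with array weights and 0 to 3 without single arrays. The difference between siRNAs gave 0 throughout.

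Median centring turned Srgap3 MMAB016847 (0.15 over both siRNAs, 0.19 with siFoxO6-2), Ext1 (0.0687 and 0.0425), Ndst1 (0.14 and 0.12), Abl1 (0.0957 and 0.0862) and Rhoa (0.36 and 0.16). The cause was not tested. Under it Foxo6 was -0.69 (limma adjusted p = 0.0706).

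Over all gene probes, the 4879 calls of both siRNAs became 506 with median centring, 2438 with trend and robust variance, 8573 with array weights, 0 with the widened scrambled spread, 3183 genes with the mean of probes, 353 without both replicate 1 arrays, and 2103 to 8127 without single arrays. The 3236 calls of siFoxO6-2 became 0, 498, 8473, 0, 2074 and 27 in the same order, 498 on its own arrays, and 456 to 6382. The 271 calls of siFoxO6-3 became 0, 0, 708, 0, 134 and 0 in that order, 414 with an offset of 10, 515 with scaling, 11 with the replicate block, and 0 to 1534. The difference gave at most 12 (array weights).

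Same-numbered pools correlated at 0.524, 0.182, -0.0922 and -0.279 for numbers 1 to 4, so the numbers were not taken to pair the pools. With the replicate block 6 probes were called over both siRNAs, the same 4 plus Slit2 MMAB018065 (0.22, limma adjusted p = 0.0191) and Slit2 MMAB018064 (0.29, limma adjusted p = 0.0303). With siFoxO6-2 the block ended the calls of Srgap1 MMAB013486 (limma adjusted p = 0.0559) and Srgap3 MMAB016847 (0.078), and its 1 call was Slit2 MMAB018064, higher (0.37, 0.0491). Dim probes limit what can be seen of Slit3 and Robo3, and no p-value covers the spread of scrambled cortices.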
